A study of Mus musculus with 11 samples.

Results

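Keratins are the intermediate filament proteins of epithelial cells. Every row of the array table whose gene symbol is Krt followed only by a number was taken, which gave 50 of 23835 named genes. Keratin filaments form from pairs of an acidic type I and a basic type II protein, and they anchor to desmosomes and hemidesmosomes. In the mammary gland, luminal cells are known for the simple keratins Krt8, Krt18, Krt19 and Krt7, and basal cells for Krt5 and Krt14. Other keratins belong to the upper layers of stratified epithelia, to the inner root sheath of the hair follicle, or to the hair shaft and nail.

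RNA came from mouse mammary tumour cells with the cell genotype MMTV-rtTA;TetO-Wnt1, in which doxycycline switches on the oncogene Wnt1 through a transgene pair driven in mammary epithelium by the MMTV promoter. The cells carried H2B-eGFP, a fluorescent histone label, were placed in the mammary site of female nu/nu hosts, which lack a thymus, and were isolated again from the lesions as the fraction named GFP plus in the sample titles. There were 4 arrays of primary tumour cells from mice on doxycycline (labelled untreated), 3 arrays of residual lesion cells taken 28 days after doxycycline withdrawal, and 4 arrays of recurrent tumour cells that had also been through Wnt1 inhibition. The cells of all 3 groups share the genotype, the label and the host strain, and the labels do not say whether they derive from 1 clone or whether arrays of a group came from separate mice, so each p-value reflects the scatter of these arrays only, part of which may be technical.

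All signals below are log2 values made with RMA, a method that normalizes arrays to each other, with 1 probe set per gene. Olfactory receptor genes (1066 genes), whose expression belongs to the nose, served as background, and a keratin was called above background where its group mean exceeded the mean 95th percentile of that class on the same arrays, 4.00 for the primary, 4.36 for the residual and 4.06 for the recurrent arrays. The background itself therefore read higher on the residual arrays, which bears on small rises of dim genes there. Levels are compared between groups for 1 gene at a time, never between genes, since each probe set has its own brightness. For the same reason, a level above this threshold does not by itself show that a gene is expressed. Precision is set by having 3 or 4 arrays per group.

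Markers of the cells did not all match the epithelial label. Epcam, a surface protein of luminal epithelium, read 3.23, 3.35, 3.14 and 3.45 in primary cells, 3.47, 6.29 and 4.10 in residual cells and 3.43, 3.32, 3.45 and 3.45 in recurrent cells, so it was above background on 1 array only, residual 2. Cdh1, the epithelial cadherin, was above background on every array (4.84 to 8.11), and Trp63, a transcription factor of basal epithelium, read 3.84 to 4.38. Array residual 2 stood apart from the other residual arrays in luminal genes: the mean of 17 luminal markers was 5.63 there, against 4.75 and 4.82 on residual 1 and 3. Beside the residual results that lost or gained a call without it, the adjusted p without residual 2 is therefore given. The list mean of 10 fibroblast markers ranged from 8.10 to 9.45 in residual lesions, against 5.52 to 6.12 in primary tumours, and from 7.69 to 8.76 in recurrent tumours. Of these 10 markers 9 were called higher in residual than in primary cells, beside 4.81% of all genes, and 6 in recurrent than in primary cells, beside 0.818%. Of 10 measured macrophage markers 4 were lower in residual than in primary cells (Cd14, Itgam, C1qb and Fcgr1), beside 7.61% of all genes. Without residual 2 the calls of C1qb and Fcgr1 were lost (adjusted p = 0.0629 and 0.0554), and Mrc1 and Cd68 were called lower (0.00428 and 0.0309). No endothelial marker of 6 and no adipocyte marker of 5 was called in limma in any comparison, and 1 of 5 muscle markers (Mylpf) was lower in residual than in primary cells, a call lost without residual 2 (adjusted p = 0.0577). The part of other cells in the keratin results was not tested. In bulk RNA, fewer cells of a type and less RNA per cell cannot be told apart.

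Fewer keratins were above background than not, and calls were made in both directions. Of the 50 keratins, 8 were above background on all 11 arrays and 26 on none, and 18 had a group mean above background in at least 1 group. Tests with limma across all named genes called 9 keratins in at least 1 of 3 comparisons at an adjusted p under 0.05, and 8 of these 9 had a group mean above background. In residual against primary cells 4 keratins rose (Krt14, Krt73, Krt34 and Krt76) and 4 fell (Krt8, Krt18, Krt80 and Krt16), which is 8 of 50 members beside 12.4% of all genes called. The calls over all genes were 1146 higher and 1814 lower, and 899 and 2333 with arrays centred on their medians. In recurrent against primary cells 2 fell (Krt7 and Krt80), beside 1.8% of all genes called, and 0 rose in limma, where 1 (Krt73) was higher at an unadjusted p under 0.05. In recurrent against residual cells Krt8 and Krt18 were higher and Krt14, Krt73 and Krt7 lower, which is 5 of 50 beside 5.78% of all genes. These 3 comparisons share arrays. Single arrays bear on these counts: without primary 2 the calls in residual against primary cells were 2 higher and 2 lower, and without primary 2, primary 3 or primary 4 no keratin was called lower in recurrent against primary cells. Calls over all genes dropped as well. Without primary 2 they were 846 higher and 1382 lower in residual against primary cells. In recurrent against primary cells 235 genes were called lower with all arrays, and 118, 110 and 104 without primary 2, primary 3 and primary 4. The groups of arrays did not overlap for 8 keratins in residual against primary cells, beside 24.8% of all genes, for 3 in recurrent against primary cells, beside 9.02%, and for 7 in recurrent against residual cells, beside 15.5%. The median log2 difference of the 50 keratins was 0.07 in residual against primary cells, beside 0.03 over all genes.

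**Figure D1:**
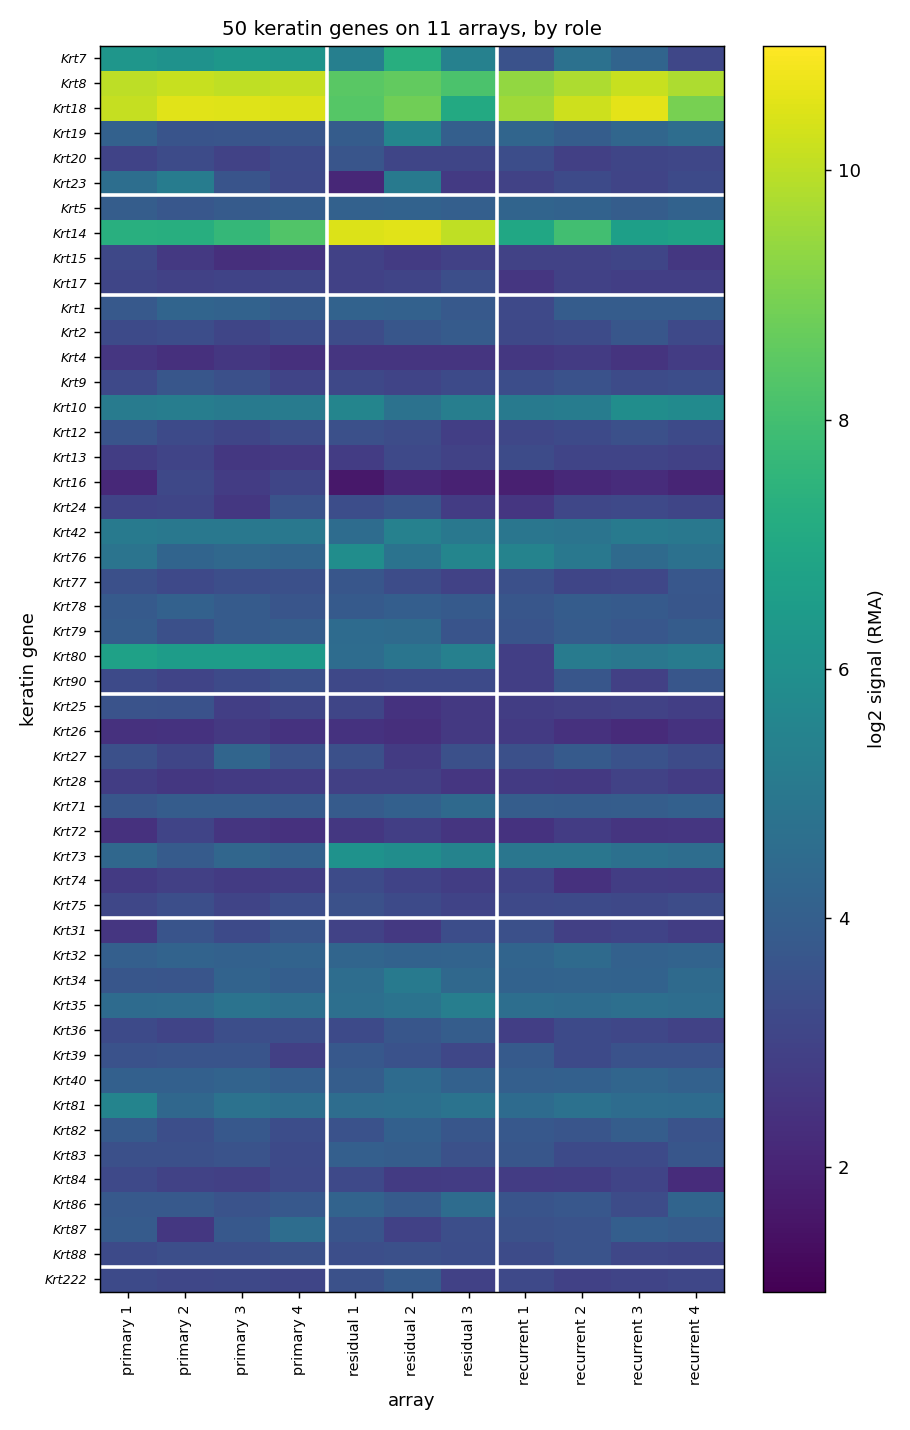
Log2 RMA signal (colour) of the 50 keratin genes (rows, grouped by role from simple keratins at the top to hair keratins and Krt222 at the bottom) on the 11 arrays (columns: primary, residual, recurrent). Within their rows, Krt8 and Krt18 are lowest and Krt14 and Krt73 highest on the 3 residual arrays.

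**Figure D2:**
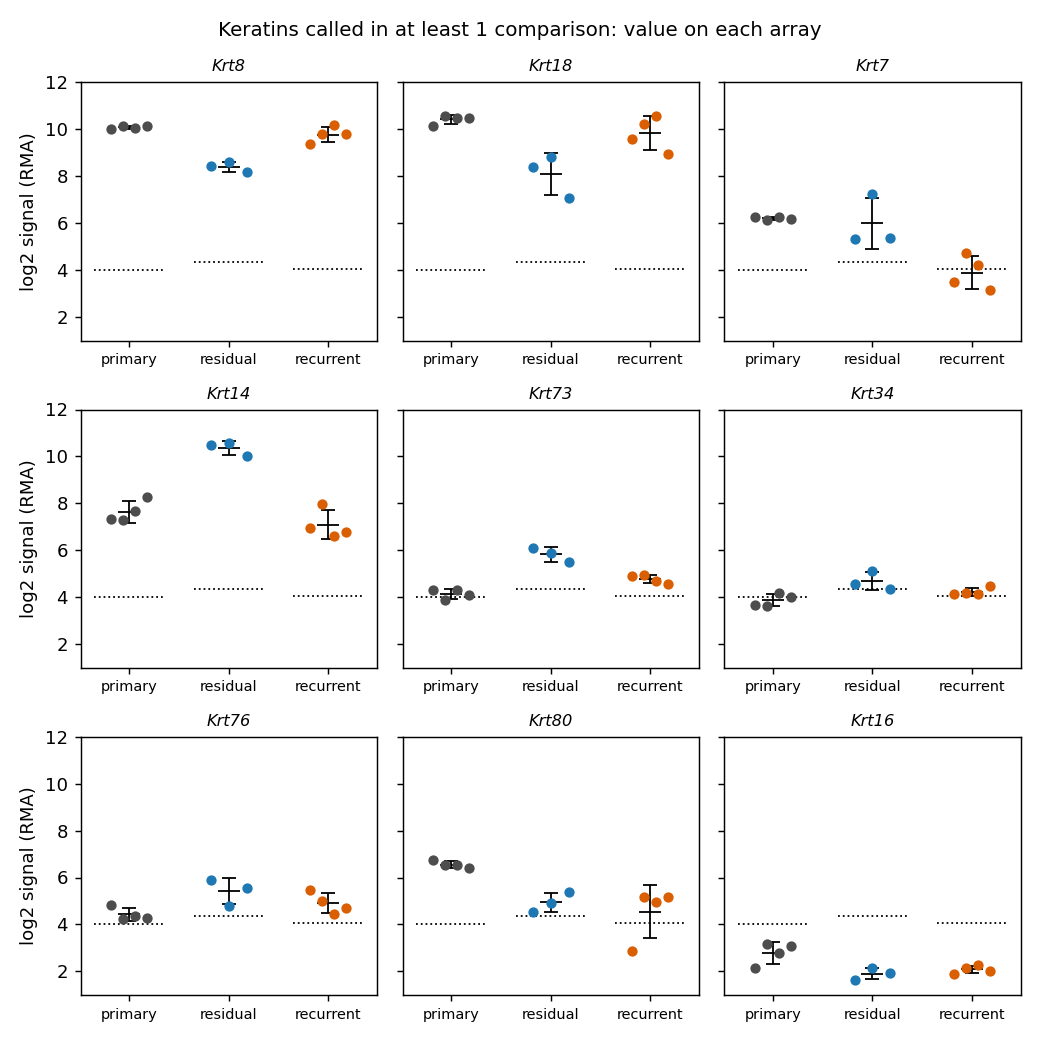
Log2 RMA signal of the 9 keratins called in at least 1 comparison. Each point is 1 array, bars give mean ± SD (n = 4 primary, 3 residual, 4 recurrent) and dotted lines the mean 95th percentile of olfactory receptor genes. Krt8 and Krt18 are lowest and Krt14 and Krt73 highest in residual cells.

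The simple keratins Krt8 (type II) and Krt18 (type I) form the filament pair that simple epithelia make first. They were lowest in residual cells and higher again in recurrent tumours. Krt8 read 10.00, 10.15, 10.04 and 10.14 on the primary arrays, 8.46, 8.59 and 8.18 on the residual arrays and 9.38, 9.78, 10.16 and 9.78 on the recurrent arrays. Every residual array was below every primary and every recurrent array. Krt8 averaged 8.41 ± 0.21 in residual cells and 10.08 ± 0.07 in primary cells (SD, n = 3 and 4), a fall of 3.19-fold (log2 difference -1.67, SE 0.17, limma adjusted p = 0.000103). In recurrent cells it averaged 9.78 ± 0.32 (n = 4), 2.58-fold above residual cells (log2 difference 1.37, SE 0.17, adjusted p = 0.000796). The recurrent minus primary difference of Krt8 was -0.30 (95% interval -0.66 to 0.05, adjusted p = 0.458).

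Krt18 followed its partner with more spread. It read 10.13, 10.56, 10.50 and 10.48 on the primary arrays, 8.37, 8.83 and 7.08 on the residual arrays and 9.59, 10.24, 10.59 and 8.95 on the recurrent arrays. Residual 3 and recurrent 4 were the lowest arrays of their groups, and the residual arrays overlapped with neither of the other groups. The mean was 8.09 ± 0.91 in residual cells and 10.42 ± 0.19 in primary cells, a fall of 5.01-fold (log2 difference -2.32, SE 0.42, adjusted p = 0.00432). Recurrent cells averaged 9.84 ± 0.72, 3.36-fold above residual cells (adjusted p = 0.0339), a call that was lost in 12 of 23 alternative fits, with adjusted p up to 0.129. Without residual 2, Krt8 fell by 1.76 and Krt18 by 2.69 on the log2 scale in residual against primary cells (adjusted p = 0.000389 and 0.00406).

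Krt7, a type II keratin of glandular and ductal epithelia, was lowest in recurrent tumours. It read 6.25, 6.11, 6.27 and 6.16 on the primary arrays, 5.33, 7.26 and 5.38 on the residual arrays and 3.51, 4.72, 4.21 and 3.14 on the recurrent arrays. All recurrent arrays were below all primary and all residual arrays, and recurrent 1 and 4 were below the background threshold. Its mean was 3.89 ± 0.71 in recurrent cells and 6.20 ± 0.08 in primary cells, a difference of -2.31 (SE 0.42, 4.95-fold, adjusted p = 0.0206), which lost its call without any 1 of the primary arrays or without recurrent 1 (adjusted p up to 0.0666). Against residual cells (5.99 ± 1.1) recurrent cells were lower by 4.28-fold (log2 difference -2.10, adjusted p = 0.0209), and without residual 2 the difference was -1.46 (adjusted p = 0.0471). With only the arrays of these groups the call was lost (adjusted p = 0.1). The residual minus primary difference was -0.21 with all arrays (95% interval -1.21 to 0.80, adjusted p = 0.833) and -0.84 without residual 2 (adjusted p = 0.178).

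The stretches of genome just before these 3 genes are shown because Krt8 and Krt18, neighbours in the gene order of the reference, moved together while Krt7 was called the other way in recurrent against residual cells. Each line gives the 250 bases before the RefSeq start in the build GRCm38.p6, read 5′ to 3′ on the strand of the gene, and the capitals mark the motifs listed after the lines. The Krt8 stretch is chr15:102004343-102004592 on the minus strand, that of Krt18 is chr15:102027966-102028215 on the plus strand and that of Krt7 is chr15:101412153-101412402 on the plus strand.
Krt8: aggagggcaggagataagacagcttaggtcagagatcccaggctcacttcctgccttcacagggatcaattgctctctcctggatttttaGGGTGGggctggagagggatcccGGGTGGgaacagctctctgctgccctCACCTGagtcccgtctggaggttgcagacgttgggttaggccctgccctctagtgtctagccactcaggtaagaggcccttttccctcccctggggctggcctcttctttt
Krt18: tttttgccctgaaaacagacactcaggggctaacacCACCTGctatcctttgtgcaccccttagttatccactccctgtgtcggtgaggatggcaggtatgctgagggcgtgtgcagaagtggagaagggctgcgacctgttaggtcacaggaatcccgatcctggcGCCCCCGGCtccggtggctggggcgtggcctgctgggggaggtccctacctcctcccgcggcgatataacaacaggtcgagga
Krt7: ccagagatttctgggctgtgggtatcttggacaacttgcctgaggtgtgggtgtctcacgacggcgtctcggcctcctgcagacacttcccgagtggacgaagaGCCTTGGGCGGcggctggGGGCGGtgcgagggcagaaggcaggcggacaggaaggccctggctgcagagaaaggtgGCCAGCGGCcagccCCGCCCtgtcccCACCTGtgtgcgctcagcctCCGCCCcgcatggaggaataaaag
Motifs were searched on both strands: TATAAA for the TATA box, TGANTCA for AP-1, CTTTGA for TCF and LEF factors of the Wnt pathway, GGGCGG for Sp1, CCACCC for KLF factors, GCCNNNGGC for AP-2, CAGGTG for the E-box of Snail factors and AACNNGTT for grainyhead-like factors. Krt8 held 2 KLF matches and 1 E-box, Krt18 held 1 AP-2 match and 1 E-box, and Krt7 held 4 Sp1 matches, 2 AP-2 matches and 1 E-box. The first Sp1 match of Krt7 overlapped an AP-2 match. Of 27025 promoters of the same length, 27.7% held the KLF motif, 17.1% the E-box, 13.6% the AP-2 motif and 32.9% the Sp1 motif. None of the 3 stretches held the TCF and LEF motif or the TATA box, which 14.0% and 13.0% of all promoters held. The AP-1 motif was in 6.87% and the grainyhead-like motif in 3.63% of all promoters, and in none of these 3. A match describes letters only.

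The other simple keratins were dim. Krt19, a small type I keratin of ducts, read 4.10, 3.61, 3.65 and 3.66 in primary cells, 3.91, 5.60 and 4.01 in residual cells and 4.26, 3.95, 4.29 and 4.57 in recurrent cells, so residual 2 was the highest array of all. It was called in no comparison, with a residual minus primary difference of 0.75 (SE 0.34, adjusted p = 0.196) that was 0.21 without residual 2. Krt23, another type I keratin, varied widely within groups: primary arrays read 4.60, 5.21, 3.58 and 3.19 and residual arrays 2.12, 5.13 and 2.70, while recurrent arrays stayed at 2.95, 3.26, 3.06 and 3.26. The residual minus primary difference of Krt23 was -0.83 (adjusted p = 0.465) with all arrays, and -1.74 (adjusted p = 0.0411) without residual 2, where it passed. Krt20, known from gut and urothelium, read 2.91 to 3.63 and was above background nowhere.

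**Figure D3:**
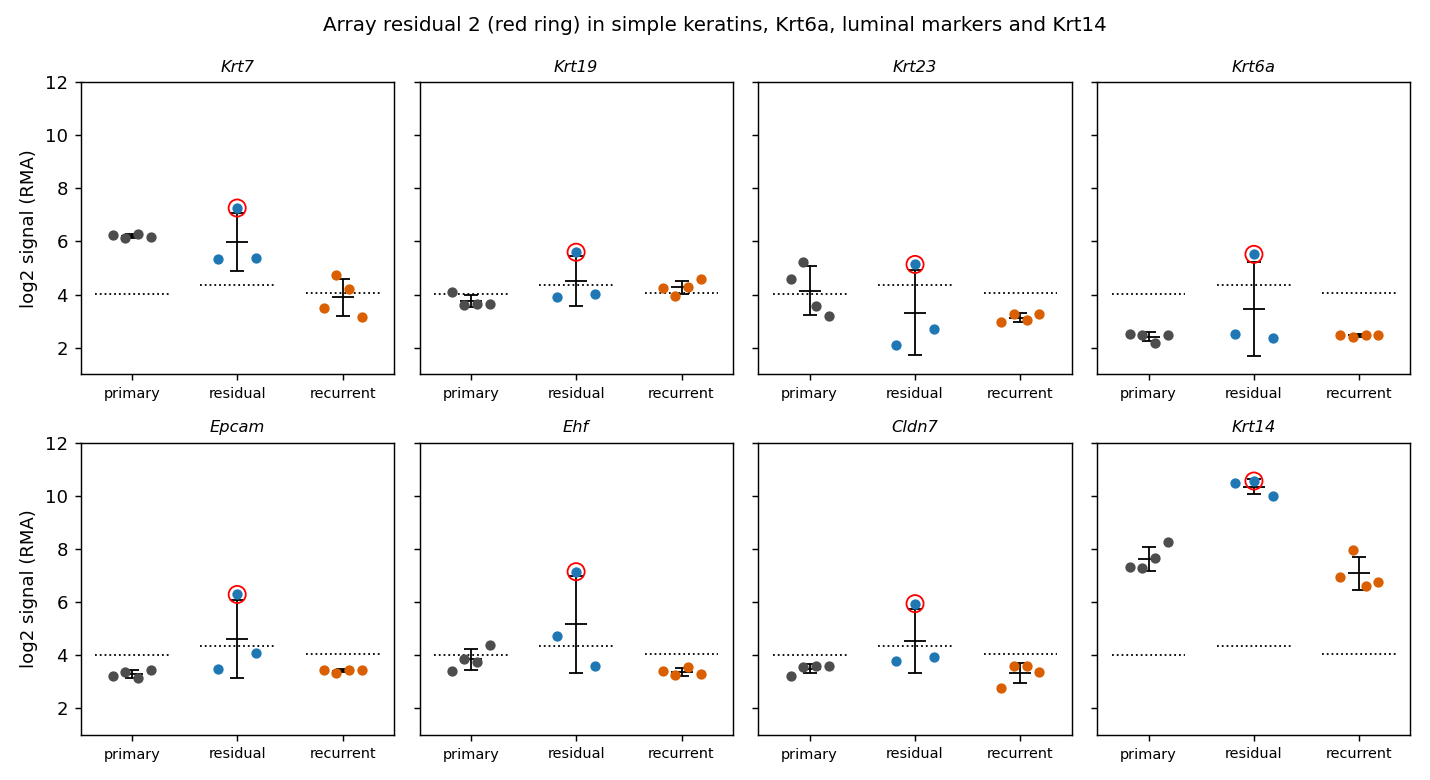
Log2 RMA signal on each array of 3 simple keratins, the stress keratin Krt6a, 3 luminal markers and Krt14. The red ring marks residual 2, bars give mean ± SD (n = 4, 3 and 4) and dotted lines the background threshold. Residual 2 is the highest array for Krt7, Krt19, Krt6a, Epcam, Ehf and Cldn7, and is near residual 1 for Krt14.

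Krt7, Krt19 and Krt23 were highest among the residual arrays on residual 2, as were several luminal genes outside the keratin family. Ehf, an epithelial ETS factor, read 7.15 on residual 2 against 4.74 and 3.60 on residual 1 and 3. Cldn7, a tight junction claudin, read 5.95 there against 3.78 and 3.93. Krt6a, a keratin of hair follicles and wounded epidermis whose symbol lies outside the number-only rule, read 5.52 on residual 2 and between 2.16 and 2.52 on every other array. Whether residual 2 holds other cells was not tested.

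Krt14, the type I keratin of basal and myoepithelial cells, showed the largest rise and the largest later fall among the keratins. It read 7.32, 7.28, 7.67 and 8.27 on the primary arrays, 10.49, 10.57 and 10.02 on the residual arrays and 6.95, 7.98, 6.63 and 6.78 on the recurrent arrays. The residual arrays lay above all others, residual 2 included, and recurrent 2 was the highest recurrent array. Krt14 averaged 10.36 ± 0.30 in residual cells and 7.63 ± 0.46 in primary cells (SD, n = 3 and 4), a rise of 6.62-fold (log2 difference 2.73, SE 0.33, adjusted p = 0.000286). In recurrent cells it averaged 7.08 ± 0.61, 9.7-fold below residual cells (log2 difference -3.28, SE 0.33, adjusted p = 0.000146), and the recurrent minus primary difference was -0.55 (95% interval -1.22 to 0.12). Both Krt14 calls passed in all 23 alternative fits, with adjusted p up to 0.00218 and 0.00266.

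Of the other basal keratins, Krt5 lay near the background threshold and Krt15 and Krt17 below it. Krt5, the type II partner of Krt14 in basal cells, read 3.96, 3.71, 3.88 and 3.97 in primary cells, 4.12, 4.16 and 4.02 in residual cells and 4.22, 4.16, 3.97 and 4.13 in recurrent cells. Its mean was above the threshold in recurrent cells only, on 3 of 4 arrays. Its residual minus primary difference was 0.22 (95% interval -0.04 to 0.48, adjusted p = 0.272). Krt15, a keratin of basal and hair bulge cells, read 2.37 to 3.15, and Krt17, a keratin of appendages and injured epidermis, 2.59 to 3.41, both below background on every array. A probe set at background does not show that a transcript is absent. Krt14, Krt16 and Krt17 are close copies of each other, so some of their signal may be shared.

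Among 14 genes listed as basal and myoepithelial markers other than keratins, 3 rose (Snai2, Sox10 and Mylk), 2 fell (Itga6 and Itgb4) and 9 did not pass in residual against primary cells. Over all genes 4.81% were called higher and 7.61% lower in that comparison. The 9 include Vwf, which was also listed as an endothelial marker. Snai2 was higher in recurrent than in primary cells too. Sox10, a transcription factor of mammary stem and myoepithelial cells, averaged 5.06 ± 0.31 in residual cells and 3.92 ± 0.20 in primary cells (adjusted p = 0.00469). Itga6, the laminin-binding integrin of hemidesmosomes that anchor Krt5 and Krt14 filaments, averaged 5.97 ± 0.57 in residual cells and 8.59 ± 0.12 in primary cells (log2 difference -2.62, adjusted p = 0.000233), opposite to Krt14. Its partner Itgb4 fell by 0.89 (adjusted p = 0.0168).

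Krt73, a type II keratin of the inner root sheath cuticle of hair, was also highest in residual cells. It read 4.32, 3.87, 4.30 and 4.11 on the primary arrays, 6.10, 5.89 and 5.48 on the residual arrays and 4.92, 4.93, 4.68 and 4.58 on the recurrent arrays, with no overlap between any pair of groups. It averaged 5.82 ± 0.31 in residual cells and 4.15 ± 0.21 in primary cells, a rise of 3.19-fold (log2 difference 1.67, SE 0.18, adjusted p = 0.000109). Recurrent cells averaged 4.78 ± 0.18, below residual cells (log2 difference -1.05, adjusted p = 0.00503), and 0.63 above primary cells (adjusted p = 0.0859, not called). Both called differences passed in all 23 alternative fits. The primary level lay near background, so the rise is measured from that level. The other 8 keratins of the inner root sheath and companion layer (Krt25, Krt26, Krt27, Krt28, Krt71, Krt72, Krt74 and Krt75) had no group mean above background, ranged from 2.21 to 4.42 and were called in no comparison.

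The sequences before Krt14 and Krt73 are shown because these 2 keratins rose in residual cells and were lower in recurrent cells, opposite to Krt8 and Krt18. They are given as above, for Krt14 chr11:100206031-100206280 and for Krt73 chr15:101802361-101802610, both on the minus strand.
Krt14: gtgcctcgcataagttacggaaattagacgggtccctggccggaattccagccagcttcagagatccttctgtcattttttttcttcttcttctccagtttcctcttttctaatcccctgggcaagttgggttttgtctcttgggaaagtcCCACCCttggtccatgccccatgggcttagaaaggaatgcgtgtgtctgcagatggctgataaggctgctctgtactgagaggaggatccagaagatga
Krt73: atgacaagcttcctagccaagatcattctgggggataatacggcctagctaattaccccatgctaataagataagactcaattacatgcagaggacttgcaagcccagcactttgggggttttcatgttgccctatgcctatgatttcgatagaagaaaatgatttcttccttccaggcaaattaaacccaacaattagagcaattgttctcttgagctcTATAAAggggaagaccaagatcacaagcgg
Krt14 held 1 match of the KLF motif, and Krt73 held 1 TATA box, the first base of which lay 30 bases before its start. Neither held the E-box, which was found before Krt8, Krt18 and Krt7 above. Of the 35 keratins with a promoter in the reference table, 16 held the TATA box (45.7%, against 13.0% of all promoters) and 14 held the E-box (40.0%, against 17.1%), while 2 held the Sp1 motif (5.71%, against 32.9%). These shares are descriptions of letters, with no test.

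Krt80, a type II keratin found in many epithelia near desmosomes, was highest in primary tumours. It read 6.74, 6.54, 6.52 and 6.39 on the primary arrays, 4.55, 4.90 and 5.37 on the residual arrays and 2.85, 5.16, 4.97 and 5.17 on the recurrent arrays. All residual and all recurrent arrays were below all primary arrays, and recurrent 1 was far below the other recurrent arrays. Its mean was 4.94 ± 0.42 in residual cells against 6.55 ± 0.14 in primary cells (3.05-fold lower, adjusted p = 0.0471) and 4.54 ± 1.13 in recurrent cells (4.02-fold lower than primary, adjusted p = 0.044). Both calls lie near the threshold and were lost in 11 of 23 alternative fits each, with adjusted p up to 0.144 and 0.124, while the direction held in all. Without residual 2 the adjusted p was 0.115 in residual against primary cells and 0.0634 in recurrent against primary cells, and both calls were lost. Without recurrent 1 the recurrent minus primary difference was -1.45 (limma adjusted p = 0.00391), and the residual minus primary difference had an adjusted p of 0.000311. With only the arrays of the groups compared, the residual minus primary difference had an adjusted p of 0.0013, while the call in recurrent against primary cells was lost. Krt80 and Krt7 are neighbours in the gene order of the reference, and both were lowest in recurrent cells by their means. For Krt80, however, the recurrent minus residual difference was -0.40 (limma adjusted p = 0.711, not called). Apart from recurrent 1, its recurrent arrays read 4.97 to 5.17, within the range of the residual arrays.

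The other calls among keratins of stratified epithelia lay near the threshold or at background. Krt76, a type II keratin of the hard palate and other oral epithelium, read 4.84, 4.23, 4.38 and 4.26 on the primary arrays, 5.89, 4.79 and 5.56 on the residual arrays and 5.46, 5.0, 4.44 and 4.71 on the recurrent arrays. Residual 2 was within the primary range, and the rise in residual cells (0.99, SE 0.29, adjusted p = 0.0445) lost its call in 12 of 23 alternative fits, the 3 other scalings of the arrays included. Without residual 2 the difference was 1.30 (adjusted p = 0.0144). Krt16, a type I keratin of wounded and hyperproliferative epidermis, read 2.14, 3.17, 2.78 and 3.07 in primary cells, 1.64, 2.14 and 1.94 in residual cells and 1.89, 2.14, 2.27 and 2.03 in recurrent cells. It was below background on every array, so its call in residual against primary cells (-0.88, adjusted p = 0.0272) concerns signals that cannot be told from background, and the call was lost in 8 of 21 alternative fits. Krt10, a type I keratin of suprabasal epidermis, was above background on every array at 4.78 to 5.90, and the level of its partner Krt1 lay near the threshold at 3.22 to 4.22. Krt10 differed by 0.03 between residual and primary cells (95% interval -0.46 to 0.52). Krt42, a type I keratin of the mouse nail, was also above background throughout at 4.52 to 5.39, with a residual minus primary difference of -0.07 (95% interval -0.46 to 0.32). The other 10 keratins of this class (Krt2, Krt4, Krt9, Krt12, Krt13, Krt24, Krt77, Krt78, Krt79 and Krt90) had no group mean above background and ranged from 2.39 to 4.52.

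Most hair and nail keratins were not above background. Of 14 measured, 5 had a group mean above background: Krt34, Krt32 and Krt40 near the threshold, and Krt35 and Krt81 above it on every array. Krt34, a type I keratin of the hair cortex, read 3.68, 3.64, 4.18 and 4.00 in primary cells, 4.57, 5.13 and 4.37 in residual cells and 4.14, 4.18, 4.14 and 4.48 in recurrent cells. Its rise in residual cells (0.81, SE 0.20, 1.76-fold, adjusted p = 0.02) was lost without residual 2 (0.59, adjusted p = 0.0754) and also without primary 1 or without primary 2. In the same comparison the 1066 olfactory receptor genes had a median difference of 0.12 and a 95th percentile of 0.72, and 50 of them were called in either direction, against 12.4% of all genes. Krt35, of the hair matrix and cuticle, read 4.50 to 5.27, and Krt81, of the hair cortex, 4.33 to 5.51, with primary 1 highest. Krt32 and Krt40, both of the hair cuticle, read 4.03 to 4.45 and 3.96 to 4.49. The other 9 hair keratins (Krt31, Krt36, Krt39, Krt82, Krt83, Krt84, Krt86, Krt87 and Krt88) ranged from 2.27 to 4.58, and Krt222, a keratin-like gene, from 2.92 to 3.85.

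**Figure D4:**
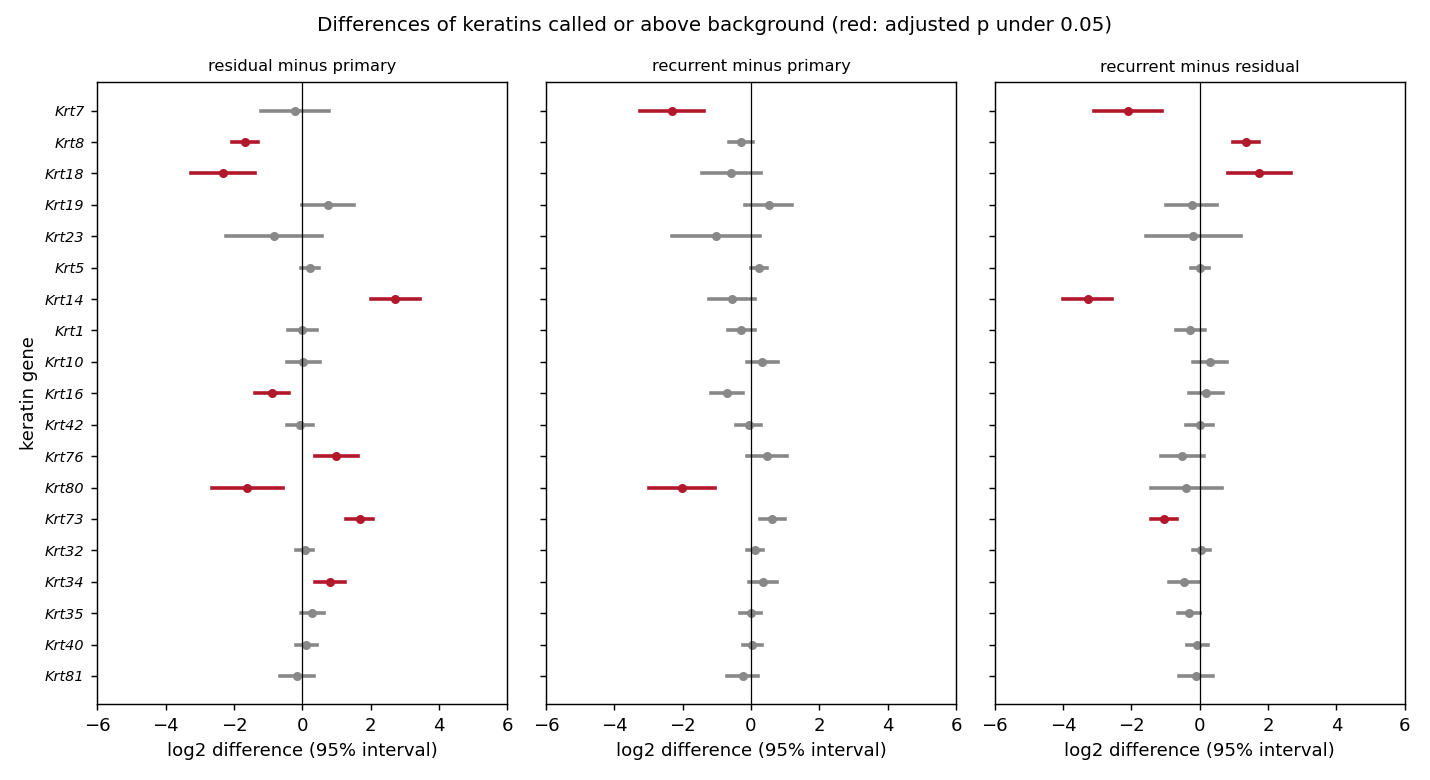
Log2 differences with 95% intervals (limma, 11 arrays) of the 19 keratins that were called or had a group mean above background, in each of the 3 comparisons. Red marks an adjusted p under 0.05. Krt8 and Krt18 lie left of 0 in residual minus primary and right of 0 in recurrent minus residual, and Krt14 and Krt73 do the reverse.

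Of the 10 keratins above background that were called in no comparison (Krt1, Krt5, Krt10, Krt19, Krt23, Krt32, Krt35, Krt40, Krt42 and Krt81), the residual minus primary differences ran from -0.83 to 0.75, with adjusted p of at least 0.196. Their recurrent minus primary differences ran from -1.01 to 0.51, with adjusted p of at least 0.37. Their recurrent minus residual differences ran from -0.31 to 0.30, with adjusted p of at least 0.289. By role, the calls in residual against primary cells were 2 lower of 6 simple keratins, 1 higher of 4 basal keratins, 1 higher and 2 lower of 16 other stratified keratins, 1 higher of 9 inner root sheath keratins and 1 higher of 14 hair keratins, beside 4.81% of all genes called higher and 7.61% called lower. The median log2 difference in that comparison was -0.52 for simple keratins and 0.21 for basal keratins, against 0.03 over all genes and 0.12 over the olfactory receptor genes. The basal median is set by Krt5 (0.22) and Krt15 (0.20), neither of which was called. In recurrent against primary cells 1 of 6 simple and 1 of 16 other stratified keratins were lower, beside 0.986% of all genes called lower and 0.818% called higher. Recurrent against residual cells had 2 simple keratins higher, beside 3.58% of all genes called higher, and 1 simple, 1 basal and 1 inner root sheath keratin lower, beside 2.19% called lower.

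The counts of genes outside the family in residual against primary cells stand beside 12.4% of all genes called. Of 17 measured desmosome and plakin genes, which link keratin filaments to the cell surface, 2 rose (Jup and Dsg1a), 1 fell (Pkp4) and 14 did not pass in residual against primary cells. Jup, the desmosomal protein plakoglobin, read 8.96, 9.01, 9.07 and 9.10 in primary cells, 10.77, 10.84 and 10.35 in residual cells and 8.67, 9.61, 8.91 and 9.75 in recurrent cells. The residual arrays were above all others (residual minus primary 1.62, adjusted p = 0.00132, recurrent minus residual -1.42, adjusted p = 0.00581). Dsp, desmoplakin, the plakin that binds keratins at desmosomes, read 5.14, 6.30 and 3.55 in residual cells and 3.11, 3.18, 3.45 and 3.83 in primary cells (adjusted p = 0.0544), and was lower in recurrent than in residual cells (adjusted p = 0.0499), a call that was lost without residual 2 (adjusted p = 0.135). Of the 4 keratins with a letter in their symbol, Krt6b was higher in residual cells (4.25 ± 0.37) than in primary cells (3.25 ± 0.21, adjusted p = 0.0117), a call lost without residual 2 (adjusted p = 0.0519), and Krt6a, Krt33a and Krt33b were not called.

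Of 16 other intermediate filament genes measured, 2 rose (Synm and Sync) and 2 fell (Lmnb1 and Vim) in residual against primary cells, and without residual 2 both rises lost their call (adjusted p = 0.124 for Synm and 0.101 for Sync). Vim, vimentin, the filament of mesenchymal cells, averaged 12.31 ± 0.09 in residual cells and 12.90 ± 0.03 in primary cells (log2 difference -0.59, adjusted p = 0.0045), and 12.81 ± 0.09 in recurrent cells (recurrent minus residual 0.50, adjusted p = 0.0193, and 0.0681 without residual 2, where the call was lost). Lmnb1, lamin B1 of the nuclear lamina, averaged 5.55 ± 0.56 in residual cells and 7.10 ± 0.27 in primary cells (adjusted p = 0.00166). Of 23 regulators of epithelial keratins, 1 rose (Zfp750), 2 fell (Klf5 and Nfe2l2) and 20 did not pass in residual against primary cells. The Nfe2l2 call was lost without residual 2 (adjusted p = 0.0812). Zfp750, a zinc finger factor of epidermal differentiation, averaged 5.14 ± 0.18 in residual cells and 4.00 ± 0.12 in primary cells (adjusted p = 0.00113) and 4.17 ± 0.30 in recurrent cells (recurrent minus residual, adjusted p = 0.0061). Klf5, a Krüppel-like factor of proliferating epithelium, averaged 8.31 ± 0.39 in residual cells and 9.55 ± 0.16 in primary cells (adjusted p = 0.0108). Of 8 hair shaft regulators 2 rose (Foxq1 and Bmpr1a) in residual against primary cells, and the Bmpr1a call was lost without residual 2 (adjusted p = 0.088). Foxq1, a forkhead factor of the hair medulla, averaged 7.39 ± 0.18 in residual cells and 5.82 ± 0.19 in primary cells (adjusted p = 0.00335), while Hoxc13 and Foxn1, which drive hair keratin genes, read 2.58 to 3.37 and 3.61 to 4.30. Of the 8 hair shaft regulators, 5 had a mean above background in each group.

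Markers of skin and hair other than keratins were tested as well. Of 17 keratinocyte markers 2 rose (Dsg1a and Dmkn) and 15 did not pass in residual against primary cells, beside 4.81% of all genes called higher. The Dmkn call was lost without residual 2 (adjusted p = 0.168). The mean of the list was 3.92 to 4.17 on the residual arrays and 3.77 to 3.93 on the primary arrays. Lor, Flg and Ivl, of the cornified layer, read 3.71 to 4.54, 2.52 to 3.07 and 2.66 to 3.75 over all arrays. In recurrent against residual cells 1 of the 17 keratinocyte markers, Sprr1a, was lower, beside 2.19% of all genes called lower. Sprr1a averaged 9.37 on residual 1 and 3. Its recurrent minus residual difference without residual 2 was -3.61 (limma adjusted p = 0.0285). Of 10 genes listed as hair follicle markers 0 rose in limma and 2 fell (Crct1 and Lgr6) in residual against primary cells. Over all genes 4.81% were called higher and 7.61% lower there. Crct1 was counted in this hair follicle list and not among the keratinocyte markers. Its difference without residual 2 was -4.04 (limma adjusted p = 0.00376). In recurrent against primary cells 0 of 17 luminal markers rose and 2 fell (Cldn3 and Areg), beside 1.8% of all genes called. In residual against primary cells 2 rose (Prom1 and Cldn4) and the same 2 fell, beside 12.4% of all genes called. The Prom1 call was lost without residual 2 (adjusted p = 0.147).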

How the data were processed

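RNA of 11 samples was measured on 1 Affymetrix array each. The authors deposited log2 signals made with RMA and R 3.0.2, per the submitters' processing notes, with 1 probe set per Entrez Gene identifier. The probe annotation version and the probe positions are not given in the sources used here; scanner files were not used here. Of 24479 rows, 23281 had 1 symbol in the platform table and 556 more were named through the RefSeq gene table of GRCm38.p6, and 642 without a name were left out. Of 2 symbols with several rows the brighter row was kept, leaving 23835 genes.

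Groups and replicate numbers came from the sample titles. limma 3.58.1 was used to fit 1 mean per group over the 11 arrays (R 4.3.3, 8 residual and 3.46 prior degrees of freedom), and two-sided moderated tests were adjusted by Benjamini-Hochberg over the 23835 genes of each comparison. The steps were tested on simulated data. Intervals are 95% intervals of the fit. The members and lists were chosen with earlier results of these data known. Every called keratin is given by array, every other keratin above background by its levels or range, and the rest by role. Of each other list the text names called members, up to 4 with the largest change, plus a few chosen after their values were seen: Epcam, Cdh1, Ehf, Cldn7, Trp63, Krt6a, Dsp, Hoxc13, Foxn1, Lor, Flg and Ivl. The alternatives were other scalings, filters, variance estimates, thresholds, a replicate block, only the groups compared, and leaving out each array. Array weights used statmod, and figures matplotlib 3.10.9.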

Additional observations from a re-analysis of the deposited data

Results flagged for a closer look

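In groups of 4 arrays, the gap between the outermost array and its neighbour was compared with the range of the group, for the 19 keratins called or above background in primary and in recurrent cells. Of 38 such groups 6 held an array that stood apart. The usual chance share of 1 in 20 assumes values without ties, so it cannot be set against this count. The same value on 2 or more arrays occurred in 42.0% of keratins and 38.3% of all genes. For Krt1 and Krt42 below, such ties fixed the outcome. Krt80 read 2.85 on recurrent 1, below 4.97 on the next array. Krt1 read 3.22 on recurrent 1, where the 3 other recurrent arrays shared the value 3.91. Krt34 read 4.48 on recurrent 4, above 4.18 on the next array. Krt10 read 5.23 on primary 2, above 5.15 on the next array. Krt19 read 4.10 on primary 1, above 3.66, and Krt42 read 5.11 on primary 1, where the 3 other primary arrays shared the value 5.02. Groups of 3 were not tested in this way, so residual 2 is not among these.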

How the results depend on the processing

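In each alternative that gave a value, every called keratin difference kept its direction. Krt8, Krt14, Krt18 and Krt73 in residual against primary cells, and Krt8, Krt14 and Krt73 in recurrent against residual cells, stayed called in all 23, while the calls of Krt7, Krt80, Krt76, Krt34 and Krt16, and of Krt18 in recurrent against residual cells, were lost in some. Keratins called higher in residual against primary cells, 4 of 50, numbered 2 at an adjusted p under 0.01, 2 with at least a 2-fold change and 2 to 4 when single arrays were left out, with 2 without primary 2. Those called lower, also 4, numbered 2 at an adjusted p under 0.01 and 2 to 4 without single arrays, with 2 without residual 3, primary 2 or primary 4. In recurrent against primary cells 2 keratins were called lower with all arrays. The number was 1 with only the arrays of both groups and 1 with the replicate number as a block. It was 0 at an adjusted p under 0.01 (limma, with 3 at an unadjusted p under 0.05) and 0 to 2 without single arrays. The number was 0 without primary 2, primary 3 or primary 4, and 1 without primary 1, recurrent 1, recurrent 3 or any residual array. Without primary 1 that 1 was Krt16 (limma adjusted p = 0.0284), below background on every array, and the calls of Krt7 and Krt80 were lost. In recurrent against residual cells the 2 called higher became 1 with only those groups, 1 with the replicate block, 1 with arrays scaled to one median and interquartile range, 1 at an adjusted p under 0.01 and 1 to 2 without single arrays, staying at 2 only without residual 2, primary 2 or recurrent 4. Same-numbered arrays of different groups had correlated deviations of -0.0805 to 0.0172 (10 pairs), so the numbers were not read as pairs. Over all genes, recurrent against residual cells had 854 higher and 523 lower, against 408 and 201 with only those groups and 553 and 319 with the replicate block. Residual against primary cells had 1146 higher and 1814 lower over all genes. These became 485 and 890 at an adjusted p under 0.01, and 578 and 783 with at least a 2-fold change. Recurrent against primary cells had 235 genes lower, against 182 with only those groups, 131 with the replicate block and 72 at an adjusted p under 0.01. Krt23 passed in residual against primary cells without residual 2 only, and the number of arrays limits what can be shown for dim keratins. The causes were not tested.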

Other observations

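Some keratins below background passed the test in single alternatives. Krt25 was lower in residual than in primary cells, with an adjusted p of 0.103 over all arrays and 0.0445 to 0.3 over its 21 alternatives. Krt79 had 0.313, and 0.0355 to 0.655 over its 21 alternatives. Krt36 was lower in recurrent than in residual cells, with 0.0929, and 0.0343 to 0.27. Krt16 was lower in recurrent than in primary cells, with 0.14, and 0.0284 to 0.317 over its 21 alternatives. None of these had a group mean above background.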
